A study of Mus musculus with 6 samples.

Results

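The sialidases are enzymes that cut sialic acid, the sugar that caps many glycoproteins and gangliosides, from the end of a glycan chain. The mouse genes Neu1, Neu2 and Neu3 were taken by symbol from the deposited count table, where all 3 were found among 45527 named genes, and all 3 passed the filter on low counts that left 16252 genes. They were chosen because Neu1 and Neu2 had been seen to be higher in the knockout-labelled libraries of these same data, so their values are given as a description and without a test. Neu1 acts in the lysosome in a complex with the carboxypeptidase cathepsin A and beta-galactosidase, and its loss causes the storage disease sialidosis. Neu2 is the cytosolic sialidase, which was cloned from rat skeletal muscle and is known to be induced when rodent myoblast lines differentiate, whereas Neu3 sits at the plasma membrane and acts on gangliosides.

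RNA was sequenced from satellite cells, the stem cells of skeletal muscle that express Pax7, which had been sorted by yellow fluorescence 24 h after the lower hindlimb muscles were injected with 30 µl of cardiotoxin, a toxin that kills muscle fibres. The knockout mice were labelled Paxbp1-iKO and had the genotype Pax7creER:Paxbp1flox/flox:R26R-YFP, with both alleles of Paxbp1 floxed, and the controls were Pax7creER:Paxbp1flox/+:R26R-YFP, with a single floxed allele. Both groups thus carried the Cre recombinase driven from Pax7 and the fluorescent reporter that marks the cells in which it acted, and the labels do not state the age of the mice. There were 3 libraries per group. The study used 3 pairs of mice, but no label ties a library to an animal or a pair, and p-values therefore reflect the variation among libraries alone.

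Totals were 23327359 to 28050748 counts in the iKO-labelled libraries and 23508654 to 27309423 in the controls. Paxbp1 itself, examined as a check of the labels, was at 110.2 ± 15.4 CPM (counts scaled to library size) in the iKO-labelled libraries and 68.6 ± 6.81 CPM in the controls (SD, n = 3 each). It was higher in every library of the labelled knockout (log2 fold change 0.68 ± 0.13 (SE), adjusted p = 0.00954, edgeR's quasi-likelihood test). This goes against the label. Counts cover the whole gene and no label names the floxed part, so every direction below is that of the libraries labelled Paxbp1-iKO. Of 10 satellite cell markers 6 were called higher and 3 lower in the iKO-labelled libraries, against 8.15% of all genes tested called higher and 12.3% called lower. Pax7, among those higher, was at 49.5 ± 1.70 CPM in the iKO-labelled libraries and 11.3 ± 2.14 CPM in the controls (SD, n = 3 each). The markers called lower were the myogenic factor Myf5, at 292 ± 18.2 CPM in the iKO-labelled libraries and 449.9 ± 25.6 CPM in the controls, the integrin Itga7, at 430.2 ± 39.2 CPM in the iKO-labelled libraries and 687 ± 102 CPM in the controls, and desmin, Des, at 1095 ± 158 CPM in the iKO-labelled libraries and 1420.1 ± 93.9 CPM in the controls (SD, n = 3 each; edgeR adjusted p = 0.00136 for Myf5, 0.0059 for Itga7 and 0.0435 for Des). The call of Des was lost whichever library was removed and under upper-quartile, library-total or RLE (median-of-ratios) scaling. It was also lost with the replicate number as a block and on log2(FPKM + 1) without a filter.

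Neu2 lies on the plus strand of chromosome 1 (ENSMUSG00000079434.8, 87509889 to 87597845 in GRCm38), with 7 annotated transcripts. RefSeq places starts of the gene at 3 positions, the first 20523 bases and the second 10528 bases upstream of the third, which lies next to the main coding exons. Neu1 lies on the plus strand of chromosome 17 (ENSMUSG00000007038.5, 34931253 to 34935953) with a single RefSeq start. The 250 bases before the third Neu2 start and before the Neu1 start are shown because these are the members that were higher in the iKO-labelled libraries. Both are from RefSeq on GRCm38.p6, plus strand, at chr1:87594300-87594549 for Neu2 and chr17:34931003-34931252 for Neu1. Capitals mark CANNTG, the E-box core that myogenic and other basic helix-loop-helix factors read, and TATAAA.
Neu2: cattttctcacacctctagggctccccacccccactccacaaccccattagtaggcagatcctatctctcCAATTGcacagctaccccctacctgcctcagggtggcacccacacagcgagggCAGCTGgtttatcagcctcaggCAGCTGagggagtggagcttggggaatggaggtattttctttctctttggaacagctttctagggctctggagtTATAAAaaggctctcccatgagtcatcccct
Neu1: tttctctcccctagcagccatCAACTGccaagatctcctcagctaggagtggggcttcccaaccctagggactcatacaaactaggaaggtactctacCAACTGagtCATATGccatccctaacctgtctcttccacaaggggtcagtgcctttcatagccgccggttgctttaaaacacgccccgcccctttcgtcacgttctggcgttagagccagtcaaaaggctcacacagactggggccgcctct
The Neu2 window held 3 matches to CANNTG, and 2 of these had the letters CAGCTG. The TATA box letters TATAAA stood 31 to 26 bases before the start, and TGANTCA, the letters of an AP-1 site, was matched by TGAGTCA in the last 13 bases. The Neu1 window also held 3 matches to CANNTG. The letters TGAGTCA were there too, overlapping a pair of these matches, and GGGCGG was on the minus strand, while the TATA box letters were absent. Both strands were searched in all windows. Over 32817 RefSeq promoter windows of this length, 66.2% held CANNTG at least once and 12.2% at least 3 times, 12.4% held the TATA box letters, 6.75% those of the AP-1 site and 32.7% those of the GC box GGGCGG. The core of the element read by TFEB, spelled CACGTG, was in none of the windows of Neu1, Neu2 or Neu3, and in 6.02% of all windows. The decamer of the p53 response element was matched once, before the second Neu2 start, and in 7.12% of all windows. The window of the first Neu2 start held none of these motifs, the second held CANNTG once, and that of Neu3 held GGGCGG and the CCAAT box once each. In the Neu2 window shown, a CCAAT box overlaps the first of the E-box matches, and this box was in 33.8% of all windows. A match of letters is a description of the sequence and does not show that a factor binds there.

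Neu2 was the most abundant sialidase RNA in every library and stood far higher in the iKO-labelled libraries. Its counts were 9900, 14672 and 15379 in iKO 1 to 3, against 1382, 1373 and 1093 in controls 1 to 3. Scaled to library size these were 347.0, 500.2 and 624 CPM in iKO 1 to 3, against 61.8, 53.1 and 41.9 CPM in controls 1 to 3. The groups did not overlap, and the lowest iKO-labelled library, iKO 1, was 5.62 times the highest control, control 1. Means were 490.3 ± 139 CPM in the iKO-labelled libraries and 52.2 ± 9.98 CPM in the controls (SD, n = 3 each), a log2 fold change of 3.23 ± 0.23 (SE) or 9.39-fold. By size of fold change Neu2 was number 147 of the 16252 genes tested, and 97 of the 1324 genes called higher had a larger one. Because bulk RNA was measured, more or fewer cells of a type and more or less RNA per cell cannot be told apart. This holds here and in all comparisons below.

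Neu1 was higher as well, by a smaller factor and with a narrower spread. Its counts were 632, 702 and 528 in iKO 1 to 3, against 281, 275 and 230 in controls 1 to 3. This gave 22.2, 23.9 and 21.4 CPM in iKO 1 to 3, against 12.6, 10.6 and 8.81 CPM in controls 1 to 3. The groups did not overlap, the closest libraries being iKO 3 and control 1, which differed by a factor of 1.70. The mean was 22.5 ± 1.30 CPM in the iKO-labelled libraries and 10.7 ± 1.88 CPM in the controls (SD, n = 3 each), with a log2 fold change of 1.08 ± 0.20 (SE) or 2.11-fold. Of all genes tested, 1824 (11.2%) had a larger fold change.

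Neu3 was close to the limit of detection. Its counts were 3, 38 and 21 in iKO 1 to 3, against 18, 32 and 17 in controls 1 to 3, so that the groups overlapped and the lowest and the highest library were both iKO-labelled. The mean was 0.751 ± 0.602 CPM in the iKO-labelled libraries and 0.898 ± 0.304 CPM in the controls (SD, n = 3 each). The log2 fold change of -0.26 ± 0.91 (SE) had an error larger than itself, and it changed sign without iKO 1 (0.26) or control 2 (0.051) and was -0.91 without iKO 2, so no difference was detectable at this depth. Neu4, the remaining sialidase of the family and not among the chosen genes, had 2, 3 and 0 counts in iKO 1 to 3 and 3, 0 and 0 in controls 1 to 3, too few to be tested.

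So Neu1 and Neu2, 2 of the 3 genes, had groups that did not overlap. Groups did not overlap for 39.8% of all genes tested, and for 18.9% they did not overlap with the iKO-labelled group higher. By edgeR 20.4% of all genes tested were called in either direction. Since the genes were chosen on this contrast, nothing is read from their count.

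**Figure D1:**
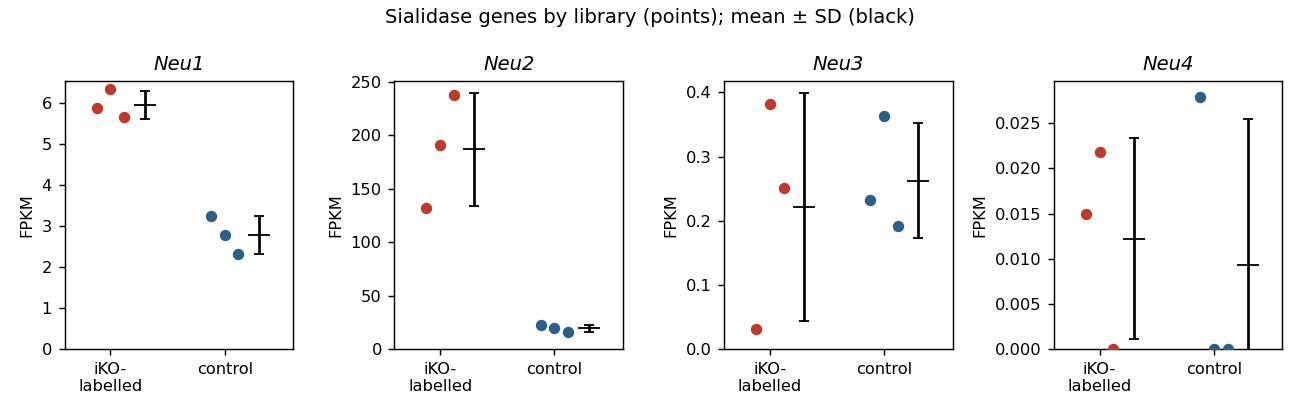
Level of each sialidase gene in FPKM (vertical axes, linear and different for each gene) in the 3 iKO-labelled (red) and 3 control (blue) libraries, with the mean and SD in black beside the points. Neu2 runs from 132 to 237 FPKM in the iKO-labelled libraries and from 15.9 to 23.01 FPKM in the controls, Neu1 runs from 5.66 to 6.32 FPKM in the iKO-labelled libraries and from 2.32 to 3.25 FPKM in the controls, and the groups overlap for Neu3 and Neu4.

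Levels of different genes were compared per length, on the deposited FPKM (fragments scaled for gene length and library size). The order was Neu2, Neu1, Neu3 in each of the 6 libraries. Neu2 was at 187 ± 52.6 FPKM in the iKO-labelled libraries and 19.7 ± 3.58 FPKM in the controls, Neu1 at 5.95 ± 0.341 FPKM in the iKO-labelled libraries and 2.79 ± 0.463 FPKM in the controls, and Neu3 at 0.222 ± 0.178 FPKM in the iKO-labelled libraries and 0.262 ± 0.0895 FPKM in the controls (SD, n = 3 each). In both groups the neighbours in this order were further apart than their spreads, whereas Neu3 and Neu4 (0.0122 ± 0.0111 FPKM in the iKO-labelled libraries, 0.0093 ± 0.0161 FPKM in the controls) both lie near zero. The level of Neu2 was 22.6, 30.1 and 42.0 times that of Neu1 in iKO 1 to 3, against 7.09, 7.20 and 6.85 times in controls 1 to 3. This ratio varied little among the controls and widely among the iKO-labelled libraries. Of the summed FPKM of the 4 genes, Neu2 made up 96.6% ± 0.924 in the iKO-labelled libraries and 86.5% ± 0.227 in the controls, and Neu1 made up 3.26% ± 0.959 in the iKO-labelled libraries and 12.3% ± 0.301 in the controls (SD, n = 3 each). Ranked by FPKM among all named genes of a library, Neu2 was number 454, 292 and 225 in iKO 1 to 3 and number 2666, 3007 and 3608 in controls 1 to 3.

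The spread within a group also differed between the members. Among the iKO-labelled libraries Neu2 had a coefficient of variation of 28.3%, and the highest library, iKO 3, was 1.80 times the lowest, iKO 1. Neu1 varied by 5.76% among the same libraries. In the controls the coefficient was 19.1% for Neu2 and 17.6% for Neu1. For Neu3 the coefficient was 80.1% in the iKO-labelled libraries and 33.8% in the controls.

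The annotation at the Neu2 locus bears on what its counts can hold. The span of Neu2 overlaps that of Ngef, a guanine nucleotide exchange factor on the minus strand, by 63982 bases through a single Neu2 transcript with a distant first exon, and the exons of the genes share 123 bases of the 2590 exonic bases of Neu2. The protocol does not mark strand, so reads in these 123 bases cannot be assigned. Ngef was at 8.31, 11.7 and 15.9 CPM in iKO 1 to 3, against 9.88, 1.74 and 9.004 CPM in controls 1 to 3, far below Neu2 in each library, and its groups overlapped (log2 fold change 0.80 ± 0.57 (SE), edgeR adjusted p = 0.393). On the other side, 22466 bases away, Inpp5d, an inositol phosphatase of blood cells, was at 3.33 ± 3.18 CPM in the iKO-labelled libraries and 3.06 ± 0.418 CPM in the controls (SD, n = 3 each; edgeR adjusted p = 0.931). Counts are summed over all starts, so the part of each start in the Neu2 level was not measured.

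**Figure D2:**
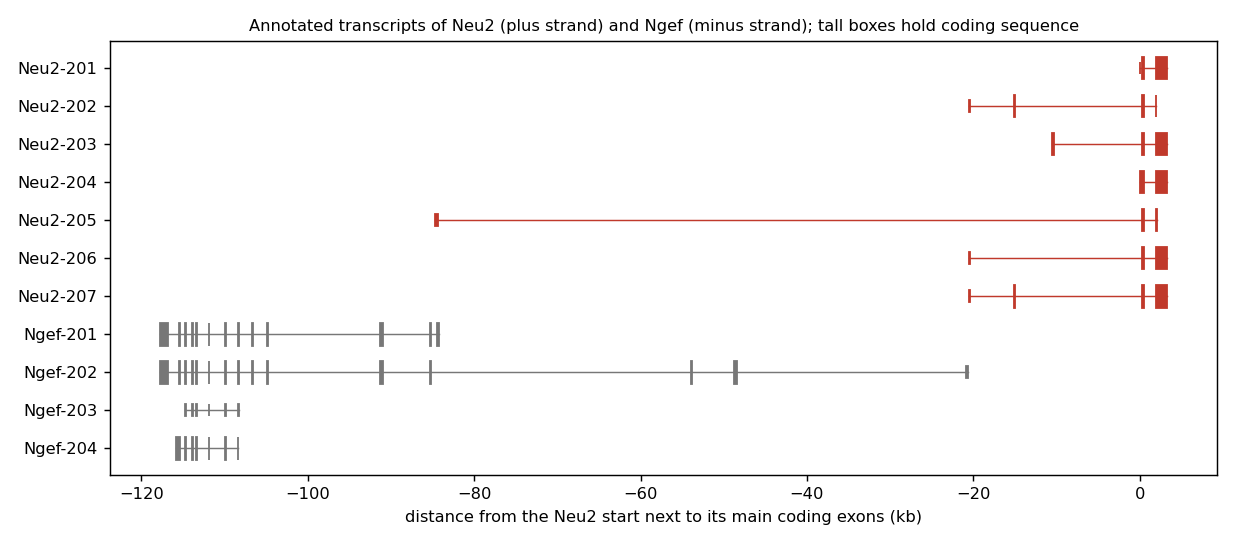
Annotated transcripts of Neu2 (red, 7 transcripts) and of Ngef (grey) in GENCODE M21, placed by distance in kb from the third Neu2 start (horizontal axis), with exons as boxes, tall where they hold coding sequence. Neu2-205 alone reaches into the span of Ngef, and the other Neu2 transcripts start within 20523 bases of the main coding exons.

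Next to Neu1, which lies in the class III region of the major histocompatibility complex, the neighbour on the lower side is Slc44a4, a choline transporter family gene that ends 816 bases before Neu1 on the same strand. It had 0.107 ± 0.121 CPM in the iKO-labelled libraries and 0.771 ± 0.677 CPM in the controls (SD, n = 3 each) and was too low to be tested. The neighbour on the other side, 20482 bases away on the minus strand, is Hspa1b, an inducible heat shock protein, whose reads may be shared with its near-identical copy Hspa1a. Hspa1b rose, with 16.9, 10.1 and 14.3 CPM in iKO 1 to 3, against 4.78, 4.14 and 4.06 CPM in controls 1 to 3 (log2 fold change 1.67 ± 0.27 (SE), edgeR adjusted p = 0.0044). Neu3 lies on the minus strand of chromosome 7 (ENSMUSG00000035239.6, 99811439 to 99828417). Its neighbour Spcs2, a signal peptidase subunit 9151 bases away, fell to 156.7 ± 13.6 CPM in the iKO-labelled libraries, against 208.8 ± 9.84 CPM in the controls (SD, n = 3 each; log2 fold change -0.41 ± 0.089 (SE), edgeR adjusted p = 0.0145). That call was lost when control 3, iKO 2 or iKO 3 was removed, under library-total scaling and with the replicate number as a block (highest adjusted p over all alternatives 0.0647). The other neighbour of Neu3, the olfactory receptor gene Olfr521, had counts in iKO 3 and control 1 alone.

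Because Neu2 is known for its induction in differentiating myoblasts, genes of that step are set beside it. Of 10 tested genes of differentiating myocytes and myofibres, none was called higher and 1, Acta1, was called lower, a share near the 12.3% of all genes tested. All 10 had a log2 fold change below 0, with a median of -1.18, against 0.023 over all genes tested. Of the 13 listed genes, 4 were under 1 CPM in every iKO-labelled library. Acta1, the skeletal actin, was at 6.12 ± 1.69 CPM in the iKO-labelled libraries and 22.0 ± 14.7 CPM in the controls (SD, n = 3 each; edgeR adjusted p = 0.0379). Its call ended without each library in turn but control 3, and on log2(FPKM + 1) without a filter. Without control 1 its log2 fold change was -1.22, against -1.84 with all libraries. Myog, which encodes myogenin and drives terminal differentiation, was at 0, 3.31 and 1.42 CPM in iKO 1 to 3, against 0.671, 15.9 and 4.18 CPM in controls 1 to 3, and its groups overlapped (edgeR adjusted p = 0.342). Without a count filter it was called lower (edgeR adjusted p = 0.0428; 0.0428 to 0.842 over all alternatives). The myomaker gene Mymk, which is needed for fusion, was below 1 CPM in all iKO-labelled libraries. The 13 listed genes together came to 16.5 to 19.7 CPM in the iKO-labelled libraries and 27.0 to 69.9 CPM in the controls, so their summed level was lower in the libraries where Neu2 was higher. Of the satellite cell markers, the summed level was 12194 to 12768 CPM in the iKO-labelled libraries and 9661 to 10155 CPM in the controls. The part of either marker list in the levels of Neu1 and Neu2 was not tested.

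**Figure D3:**
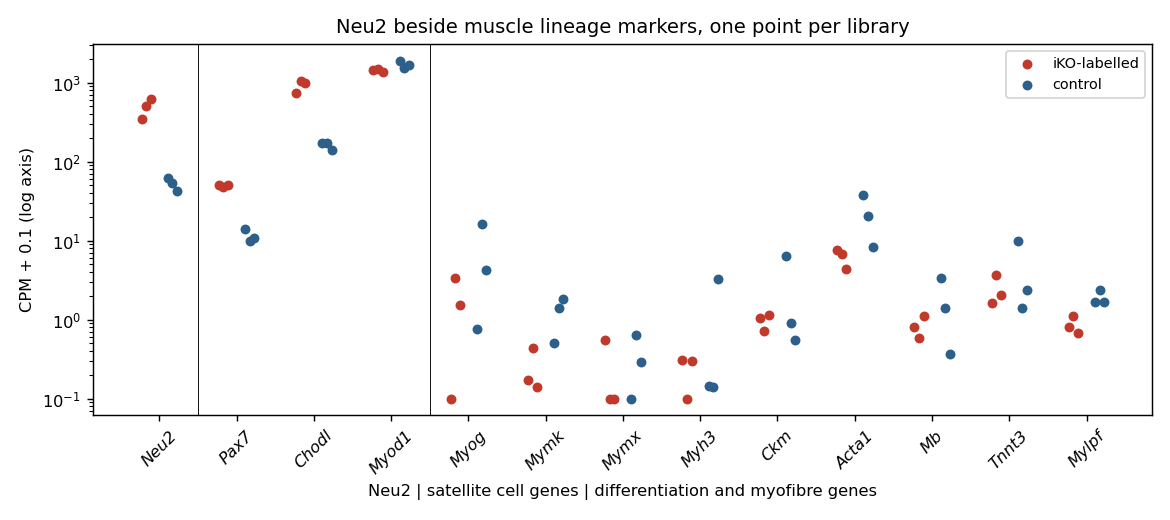
CPM plus 0.1 on a log axis for Neu2, for the satellite cell genes Pax7, Chodl and Myod1 and for genes of differentiating myocytes and myofibres. Each iKO-labelled (red) and control (blue) library has a point. The genes drawn are a part of each marker list, and Myf5, Itga7 and Des, the satellite cell markers called lower, are not drawn. Neu2 lies between 347.0 and 624 CPM in the iKO-labelled libraries and between 41.9 and 61.8 CPM in the controls, while Myog, Mymk and the myofibre genes reach at most 7.43 CPM (Acta1) in the iKO-labelled libraries.

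Neu1 is abundant in macrophages, which enter injured muscle, and markers of other cell types that a sort could carry over were examined. None of 8 macrophage markers was called in either direction, and their summed level was 103 to 208 CPM in the iKO-labelled libraries and 114 to 199 CPM in the controls, ranges that overlap. None of 3 tested neutrophil markers was called (5.22 to 5.73 CPM in the iKO-labelled libraries, 2.98 to 9.20 CPM in the controls, over 6 listed genes), and Ly6g was at 0 in all libraries but iKO 1. No call was made among 6 markers of fibro-adipogenic progenitors (581 to 702 CPM in the iKO-labelled libraries, 554 to 718 CPM in the controls). The same held for 5 endothelial markers (43.7 to 52.5 CPM in the iKO-labelled libraries, 33.0 to 112 CPM in the controls) and 3 Schwann cell markers (6.90 to 19.4 CPM in the iKO-labelled libraries, 6.13 to 28.7 CPM in the controls). The globin genes of red blood cells came to 5.08 to 16.8 CPM in the iKO-labelled libraries and 3.05 to 8.20 CPM in the controls, with none of 3 tested called. The part of these cell types in the level of Neu1 was not tested.

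The genes with which the sialidases work were then examined, in lists without Neu1, Neu2 and Neu3. Over all lists together 86 genes were tested, of which 3 rose and 12 fell in the iKO-labelled libraries (edgeR, adjusted p under 0.05 over all genes tested). That is 3.49% higher, against 8.15% of all genes tested, and 14.0% lower, against 12.3% of all genes tested, and the median log2 fold change was -0.24, against 0.023 over all genes tested. The share of falls is thus close to that of all genes. Scaling by library totals alone shifts the median over all genes by 0.13 (log2), and with it 3 of the 86 rose and 7 fell. Over all 16252 genes tested, 1921 rose and 1440 fell with that scaling, against 1324 and 1991 in the main fit. Of the 86 genes, the number that rose was 1 without control 1, iKO 1 or iKO 3. The number of them that fell was 7 without control 3 and 6 without iKO 2 or iKO 3. Counts over all genes are not given for these fits.

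None of the named partners of Neu1 in the lysosome passed the threshold. Ctsa, the protective protein cathepsin A that Neu1 needs for its stability, was at 73.8, 66.9 and 86.7 CPM in iKO 1 to 3, against 83.7, 92.2 and 75.3 CPM in controls 1 to 3, with overlapping groups (log2 fold change -0.14 ± 0.13 (SE), edgeR adjusted p = 0.516). Glb1, beta-galactosidase, was at 9.58 ± 2.56 CPM in the iKO-labelled libraries and 13.1 ± 5.03 CPM in the controls (SD, n = 3 each; edgeR adjusted p = 0.431). Per length, Ctsa was 2.64, 2.21 and 3.21 times as abundant as Neu1 in iKO 1 to 3, against 5.27, 6.87 and 6.77 times in controls 1 to 3. Slc17a5, the lysosomal exporter of free sialic acid, was at 8.90 ± 2.01 CPM in the iKO-labelled libraries and 7.47 ± 0.910 CPM in the controls (SD, n = 3 each; edgeR adjusted p = 0.567). Npl, the lyase that breaks sialic acid down, was at 3.83 ± 0.616 CPM in the iKO-labelled libraries and 3.197 ± 1.54 CPM in the controls (SD, n = 3 each; edgeR adjusted p = 0.76). Of the 11 genes tested in this list of the complex and of sialic acid recovery, 1 rose and none fell, with a median of -0.0035. The riser was Renbp, the epimerase between N-acetylglucosamine and N-acetylmannosamine, with 14.4, 12.3 and 17.4 CPM in iKO 1 to 3, against 3.85, 5.37 and 8.35 CPM in controls 1 to 3 (log2 fold change 1.33 ± 0.32 (SE), edgeR adjusted p = 0.023). Its groups did not overlap, but removing control 1, control 2, iKO 1 or iKO 3 lost the call (highest adjusted p 0.0894).

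Of 10 tested genes for the synthesis and activation of sialic acid, 3 fell (30%, against 12.3% of all genes tested), none rose and the median log2 fold change was -0.22. Pgm3, a mutase on the way to UDP-N-acetylglucosamine, the precursor of sialic acid, was at 8.59, 15.0 and 12.5 CPM in iKO 1 to 3, against 35.9, 37.1 and 24.9 CPM in controls 1 to 3 (log2 fold change -1.44 ± 0.26 (SE), edgeR adjusted p = 0.00668). Slc35a1, which carries CMP-sialic acid into the Golgi, was at 15.3, 12.1 and 12.5 CPM in iKO 1 to 3, against 23.9, 24.5 and 37.9 CPM in controls 1 to 3 (log2 fold change -1.11 ± 0.23 (SE), edgeR adjusted p = 0.0119). Its call was lost when iKO 2 or iKO 3 was removed (highest adjusted p 0.053). Nans, the sialic acid synthase, was at 30.8 ± 4.33 CPM in the iKO-labelled libraries and 46.6 ± 6.33 CPM in the controls (SD, n = 3 each; edgeR adjusted p = 0.0355). Its call ended without each library in turn but iKO 2, under upper-quartile or library-total scaling and on log2(FPKM + 1) without a filter. Gne, the rate-limiting enzyme, was at 21.3 ± 6.53 CPM in the iKO-labelled libraries and 14.0 ± 4.05 CPM in the controls, and Cmas, which makes CMP-sialic acid, at 5.17 ± 1.02 CPM in the iKO-labelled libraries and 8.21 ± 0.917 CPM in the controls (SD, n = 3 each; edgeR adjusted p = 0.225 for Gne and 0.132 for Cmas).

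Among the sialyltransferases, which add what sialidases remove, 14 of 20 were tested, 1 rose and none fell, with a median of -0.093. St3gal2, which sialylates gangliosides and O-glycans, was at 39.3, 49.0 and 29.1 CPM in iKO 1 to 3, against 11.8, 17.4 and 15.9 CPM in controls 1 to 3. The groups did not overlap (log2 fold change 1.38 ± 0.24 (SE), edgeR adjusted p = 0.00551), and the call held under all 16 alternatives. St3gal5, the GM3 synthase, was at 35.0 ± 4.79 CPM in the iKO-labelled libraries and 30.0 ± 6.84 CPM in the controls (SD, n = 3 each; edgeR adjusted p = 0.496). St8sia5, which adds further sialic acid to gangliosides, was at 0.882 ± 0.565 CPM in the iKO-labelled libraries and 0.0511 ± 0.0885 CPM in the controls, where 2 libraries held no count (edgeR adjusted p = 0.0805). It passed the threshold with DESeq2 and without control 3.

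Gangliosides, the sialic acid-bearing glycosphingolipids, are the substrates of Neu3. Of 15 tested genes of glycosphingolipid synthesis 3 fell (20%, against 12.3% of all genes tested), none rose and the median was -0.41. A log2 fold change below 0 was found for 12 of the 15, against 53 of 86 over all lists together, which include these 15. The share of all genes tested that lay below 0 is not given, so nothing is read from this count. Ugcg, the glucosylceramide synthase that starts the pathway, was at 51.5, 54.8 and 54.1 CPM in iKO 1 to 3, against 94.8, 72.1 and 73.7 CPM in controls 1 to 3 (log2 fold change -0.59 ± 0.13 (SE), edgeR adjusted p = 0.0181). Its call was lost when any iKO-labelled library was removed and with the replicate number as a block (highest edgeR adjusted p 0.06). Degs1, which makes ceramide from dihydroceramide, fell to 402 ± 23.9 CPM in the iKO-labelled libraries, against 497 ± 34.7 CPM in the controls (edgeR adjusted p = 0.0293), and the ceramide synthase Cers2 to 309 ± 13.9 CPM in the iKO-labelled libraries, against 368 ± 3.60 CPM in the controls (SD, n = 3 each; edgeR adjusted p = 0.0319). The call of Degs1 ended without control 2, control 3, iKO 2 or iKO 3, and that of Cers2 without each library in turn but iKO 1. Both ended under upper-quartile and library-total scaling, with the replicate number as a block and on log2(FPKM + 1) without a filter. That of Cers2 also ended without a count filter and with at least 5 CPM in 3 libraries.

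Of 12 tested genes of glycosphingolipid breakdown in the lysosome 1 rose and 2 fell, with a median of -0.11. That is 8.33% higher, against 8.15% of all genes tested, and 16.7% lower, against 12.3% of all genes tested. Asah1, acid ceramidase, had the smallest p of the list, with 41.8, 44.9 and 43.0 CPM in iKO 1 to 3, against 134, 92.7 and 139 CPM in controls 1 to 3 (log2 fold change -1.50 ± 0.16 (SE), edgeR adjusted p = 7.3e-04). The iKO-labelled libraries lay close together and below every control. Smpd1, acid sphingomyelinase, was at 14.3 ± 2.25 CPM in the iKO-labelled libraries and 23.9 ± 4.73 CPM in the controls (SD, n = 3 each; edgeR adjusted p = 0.0439). Its call ended without each library in turn but control 2 and under upper-quartile or library-total scaling. The same held with the replicate number as a block and on log2(FPKM + 1) without a filter. Hexa, whose product also acts on gangliosides, was at 34.8 ± 2.47 CPM in the iKO-labelled libraries and 40.4 ± 2.76 CPM in the controls (SD, n = 3 each; edgeR adjusted p = 0.306). Psap, the precursor of the saposin activators, was at 328 ± 28.4 CPM in the iKO-labelled libraries and 358 ± 29.5 CPM in the controls (SD, n = 3 each; edgeR adjusted p = 0.411).

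Among 17 tested lysosomal glycosidases and related enzymes 4 fell (23.5%, against 12.3% of all genes tested), none rose and the median was -0.29. Of those that fell, only Man2b2, an alpha-mannosidase, acts mainly on glycoproteins, whereas Naglu, Gusb and Hgsnat are known for the breakdown of glycosaminoglycans. Naglu was at 5.19, 2.97 and 5.31 CPM in iKO 1 to 3, against 21.9, 19.9 and 17.7 CPM in controls 1 to 3 (log2 fold change -2.14 ± 0.28 (SE), edgeR adjusted p = 0.00164). Gusb, beta-glucuronidase, was at 42.9 ± 2.77 CPM in the iKO-labelled libraries and 74.8 ± 9.36 CPM in the controls, and Man2b2 at 10.8 ± 1.51 CPM in the iKO-labelled libraries and 21.3 ± 2.67 CPM in the controls (SD, n = 3 each; edgeR adjusted p = 0.0046 for Gusb and 0.0111 for Man2b2). Hgsnat was at 43.7 ± 2.65 CPM in the iKO-labelled libraries and 59.4 ± 4.53 CPM in the controls (SD, n = 3 each; edgeR adjusted p = 0.0344). Its call ended whichever library was left out, under upper-quartile or library-total scaling and with the replicate number as a block. It also ended without a count filter and with at least 5 CPM in 3 libraries. The TFEB family, which drives many lysosomal genes, had no call among 4 tested: Tfeb was at 4.74 ± 1.68 CPM in the iKO-labelled libraries and 3.22 ± 2.39 CPM in the controls, and Tfe3 at 146 ± 15.5 CPM in the iKO-labelled libraries and 136 ± 23.1 CPM in the controls (SD, n = 3 each; edgeR adjusted p = 0.572 for Tfeb and 0.668 for Tfe3). Of 12 sialic acid-binding lectins, among them the Siglecs of immune cells, only 3 passed the count filter, and none was called.

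**Figure D4:**
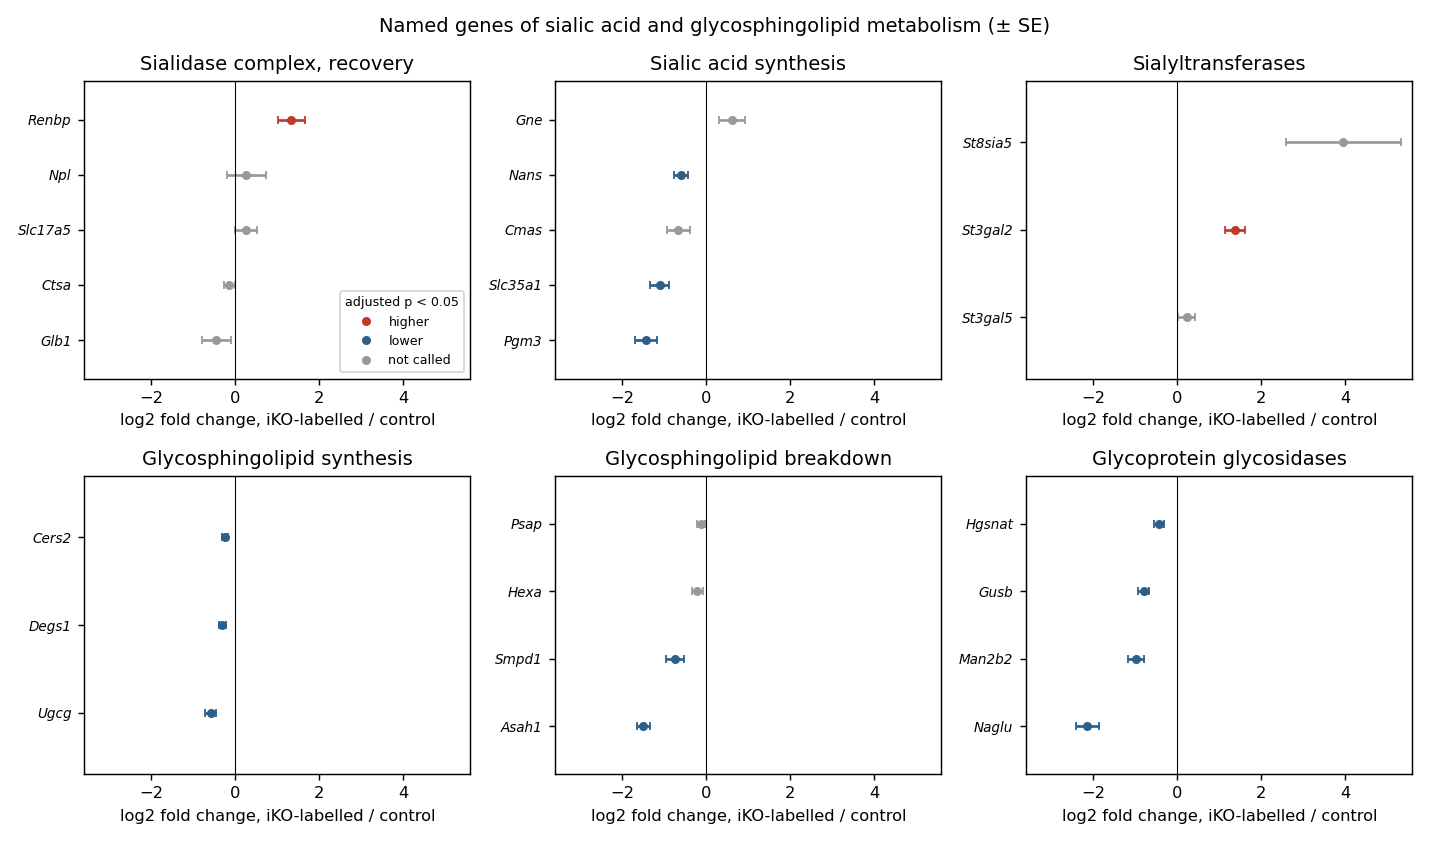
Log2 fold change of iKO-labelled over control libraries with its SE (horizontal axes) for the genes of 6 lists that are named in the text (called genes are over-represented, since most uncalled members are not drawn), red where the gene was called higher, blue where called lower and grey where not called at an adjusted p under 0.05. Renbp and St3gal2 are the red points, and Naglu (-2.14) and Asah1 (-1.50) are the blue points farthest to the left.

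Genes whose levels ran most like each sialidase were named by Pearson's r of log2 CPM over the 6 libraries, which is a description, since all genes share these libraries and the contrast between the groups. For Neu2, 489 of 16251 genes (3.01%) had an r of 0.95 or more. The 5 closest were Ssh3, a slingshot phosphatase of cofilin (r = 0.998), Tpra1, a membrane protein (0.998), Rn7sk, the 7SK RNA (0.997), the terminal uridylyltransferase Tut4 (0.996) and Chodl, a lectin-domain protein of satellite cells (0.996). Chodl was the most abundant of these, at 740, 1047 and 988 CPM in iKO 1 to 3, against 171, 174 and 142 CPM in controls 1 to 3. For Neu1, 429 genes reached an r of 0.95, and the closest were Fam53b (0.998), the cullin Cul9 (0.998), the autophagy protein Gabarap (0.997), the zinc and iron transporter Slc39a14 (0.996) and the U1 RNA gene Rnu1a1 (0.996). Rn7sk and Rnu1a1 belong to families with many copies, and no label says how reads with several matches were counted. For Neu3, 23 genes reached 0.95, led by Hfe (0.989), Itga5 (0.983), Abracl (0.976), Zfp979 (0.973) and Zhx1 (0.973). All 5 were lowest in iKO 1, as Neu3 was, and the Neu3 values rest on 3 to 38 counts a library.

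**Figure D5:**
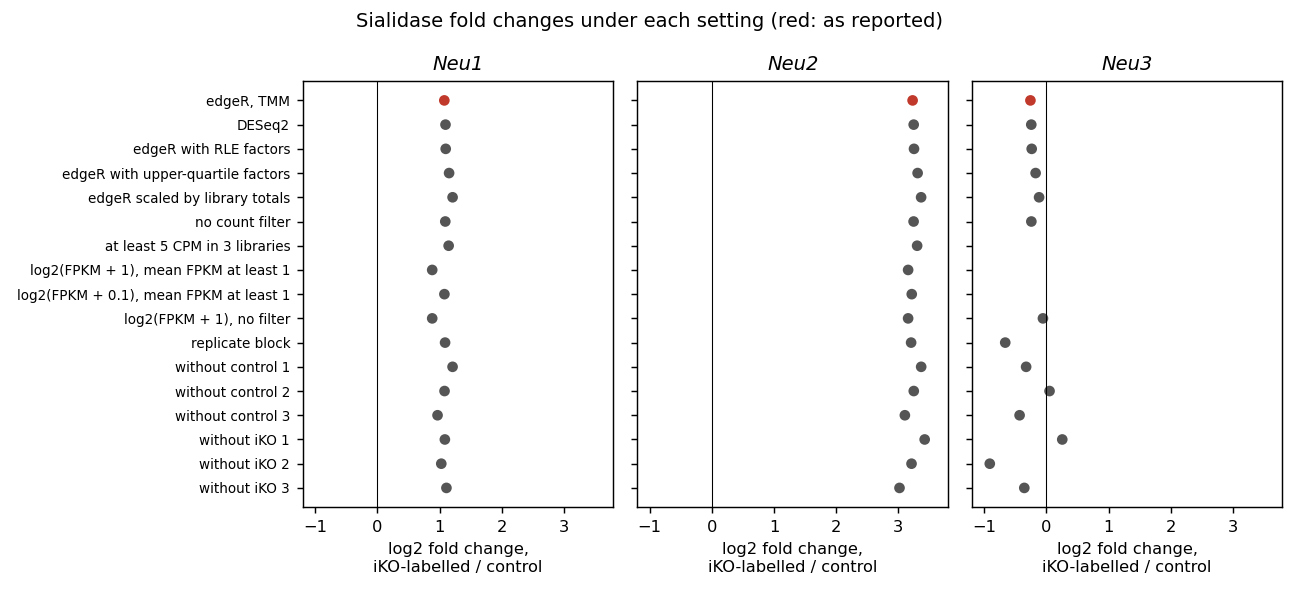
Log2 fold change of iKO-labelled over control libraries (horizontal axes) for Neu1, Neu2 and Neu3 under each setting (rows), with the values as reported in red. Neu2 stays between 3.02 and 3.43 and Neu1 between 0.88 and 1.21 under all 16 alternatives, while Neu3 runs from -0.91 to 0.26.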

How the data were processed

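RNA of sorted satellite cells was reverse transcribed and amplified by Smart-Seq2, per the labels' protocols; this method does not mark strand. Build mm10 (GRCm38) and the tools STAR, DESeq2, Trim Galore, Subread and featureCounts are listed in the submitters' processing notes, without versions or roles. The authors deposited raw counts per gene and FPKM for the same 46078 rows; 551 rows without a gene name (0.108% to 0.123% of a library's counts) were left out. The deposited FPKM follow median-of-ratios size factors, to within 9.7e-15 on the natural log scale over 11966 genes, and their gene lengths equal the GENCODE M21 union of exons for Neu1, Neu2 and Neu3 and, to within 1%, for 72.2% of 16351 genes.

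Counts were fitted in R 4.3.3 with edgeR 4.0.16 (filterByExpr with minimum count 10 and minimum total 15, TMM factors, group as the only term, 6 libraries). A gene was called where its p, adjusted by Benjamini-Hochberg over 16252 genes, was under 0.05. An SE is the log2 fold change divided by the square root of F. Alternatives used DESeq2 1.42.0 and limma 3.58.1 on log2(FPKM + 1) and log2(FPKM + 0.1). Correlations used log2(CPM + 0.5). The fit was tested on simulated data, with the same spread set for all genes. Of the genes given a 1.5-fold change 3 of 66 were recovered, of those with a 2-fold change 32 of 59, and of those with a 4-fold change 75 of 75. There were 7 false calls among 16584 genes. In these simulated data, changes of 2-fold or less could thus go uncalled. Some real genes were called at smaller changes, such as Cers2 with a log2 fold change of -0.25. The recovered shares therefore do not give the power for the real genes. Promoters were the 250 bases before RefSeq starts (GRCm38.p6). Figures and tables used Python 3.11.15.

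The members, gene lists and marker lists were chosen with earlier results of these data known. The rule for named genes covered the sialidases, Paxbp1, the nearest protein-coding neighbour on each side, the 5 genes most like each sialidase, every tested member of 4 lists (sialidase complex, sialic acid synthesis, glycosphingolipid breakdown, TFEB family) and up to 6 members of each other list by adjusted p. For brevity the text names the called list members, and uncalled members by their role, after their values were seen, as were the satellite cell and muscle markers named; the rest enter the counts, as do list members that are not reported here. No 2 libraries of a group agreed within counting noise. Protein sequences were not used here.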

Additional observations from a re-analysis of the deposited data

How the results depend on the processing

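Over 16 alternatives the log2 fold change of Neu2 ran from 3.02 to 3.43 and that of Neu1 from 0.88 to 1.21. Neu1 moved by more than its spread between replicates on log2(FPKM + 1), with or without a filter (0.88 in both), where the pseudocount of 1 lowers the fold of a gene at a few FPKM. Neu3 could be fitted under 13 of them. Leaving out each library gave 0.97 to 1.21 for Neu1, 3.02 to 3.43 for Neu2 and -0.91 to 0.26 for Neu3. The number of pathway genes called higher was 6 with DESeq2 and 5 with at least 5 CPM in 3 libraries, and 1 to 3 with a library left out. The number called lower was 7 under upper-quartile and under library-total scaling, 17 with DESeq2, and 6 to 10 with a library left out. The number of all genes called lower also moved, from 1991 in the main fit to 1656 under upper-quartile and 1440 under library-total scaling. The number of all genes called higher moved from 1324 to 1630 and 1921. Such counts are not given for DESeq2, the filters, the block or the fits with a library left out. The cause of the moves in the pathway counts was not tested. With the replicate number as a block the values were 1.09 for Neu1, 3.21 for Neu2 and -0.66 for Neu3, with 2 pathway genes higher and 8 lower. Same-numbered libraries did not deviate together (r = -0.067, -0.0021 and -0.059 for numbers 1, 2 and 3), so the numbers were not taken to pair them.

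For named genes with a test, 496 results kept direction and call, 79 lost the call, 3 gained it and 4 changed sign, none of these called. The 496 include genes that were not called and stayed so, and only called genes could lose a call. With a library left out Npl ran from -0.088 (without control 2) to 0.52 and Inpp5d from -0.96 (without iKO 3) to 0.60; Psap was 0.0086 under library totals and Inpp5d -0.40 under the replicate block. Depth limits Neu3 and Neu4 most.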
